A study of Homo sapiens with 6 samples.

Results

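Gene expression 24 h after irradiation was compared between TE13R and TE13 cells. The comparison rests on 2 of the 6 arrays of the series, those titled TE13R and TE13 at 24 h, with 1 array for each line, and the pairs at 0 h and 8 h served to tell late differences from earlier ones. TE13 is a human esophageal squamous cancer line, and TE13R is a radioresistant clone that was raised from it by repeated fractionated irradiation, so every value of TE13R describes 1 clone. Both lines were irradiated with X-rays from a linear accelerator, at a dose that the sources used here do not give, and their RNA was read on Illumina Human-6 V3 arrays, which have 1 colour. The methods state triplicate profiling, whereas the labels carry no replicate number, and the cell line field names TE13 for both lines, which are told apart by title and by the radiosensitivity field. With 1 array for a line and time point no difference has a replicate check, and no p-value is given.

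Ionizing radiation breaks DNA, and cells answer through p53, cell cycle arrest, repair and, where damage persists, cell death. In the mitochondrial pathway of apoptosis the effector proteins BAX and BAK1 permeabilise the outer mitochondrial membrane, BH3-only proteins such as BIK set them free, and relatives such as BCL2 and MCL1 hold them back. The transcript response of an irradiated line changes over hours, so 2 lines may be alike soon after exposure and differ a day later.

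Values are background-subtracted intensities. Differences are log2(intensity + 16) of TE13R minus that of TE13, which understates the change of dim genes. Bounds such as 2-fold and 1.5-fold were applied on this scale, as differences of 1 and 0.58. A fold printed for a named gene is the ratio of its intensities, so a dim gene can miss a bound that its ratio exceeds. An intensity of 20.2 or more was taken as detected, a limit set from the scatter of the negative values (3 root mean squares). A gene was represented by its brightest probe and counted as measured where the brighter 24 h array reached that limit, which held for 11550 of 18665 genes. Across measured genes the arrays of TE13R and TE13 at 24 h correlated with r = 0.958, TE13R at 24 h correlated with its own 8 h array with r = 0.952, and TE13 with r = 0.949. The 0 h arrays stood apart, with r of 0.915 against 24 h in TE13R and 0.846 in TE13. Squamous epithelial markers were above the limit in 11 of 11 cases on all 6 arrays, with summed intensities at 24 h of 71330 in TE13R and 85074 in TE13. Fibroblast markers were above the limit in 2 of 11 cases in TE13R at 24 h, with a sum of 2227, and in 4 of 11 in TE13, with a sum of 4533, most of it ACTA2 in both lines. Leukocyte markers were detected in 3 of 11 cases in each line.

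At 24 h, 1581 genes (13.7%) were at least 2-fold apart, 722 of them higher in TE13R (6.25%) and 859 lower (7.44%). The median difference of all measured genes was 0.05, beside 0.01 at 0 h and 0.01 at 8 h. A group of 495 genes (4.29%) was apart only at 24 h, that is, at least 2-fold apart then and less than 1.5-fold at 0 h and at 8 h, with 231 higher in TE13R (2%) and 264 lower (2.29%). Without the 0 h arrays in the rule 714 genes were apart at 24 h and not at 8 h. Another 91 genes (0.788%) were reversed, being at least 2-fold apart at 24 h with the opposite sign at both earlier times and at least 1.5-fold at one of them, 45 higher (0.39%) and 46 lower (0.398%). Against these, 280 genes (2.42%) were at least 2-fold apart in 1 direction at all 3 times, 115 higher (0.996%) and 165 lower (1.43%).

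Dim genes supplied much of the late group. Of the genes whose brighter array lay between 20 and 100, 27.8% were at least 2-fold apart, and of those above 6400, 3.58%. Genes are therefore described mainly from the 8771 genes with a brighter 24 h array at or above 5 times the limit, called bright here. Among them 165 were apart only at 24 h, 65 higher in TE13R and 100 lower, 34 were reversed, 10 higher and 24 lower, and 232 were apart at all 3 times. The same rule with the times exchanged gave 425 bright genes apart only at 0 h and 68 only at 8 h. It gave 50 bright reversed genes at 0 h and 5 at 8 h. At the edge of the late group, PAPSS2 was just inside with 207.9 in TE13R and 95.8 in TE13, and PHACTR2 was just outside with 207.8 in TE13R and 96.3 in TE13. Among genes lower in TE13R, LIG1 was just inside with 918.8 in TE13R and 1860.3 in TE13, and CLRN1 was just outside with 52.4 in TE13R and 120.6 in TE13.

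**Figure D1:**
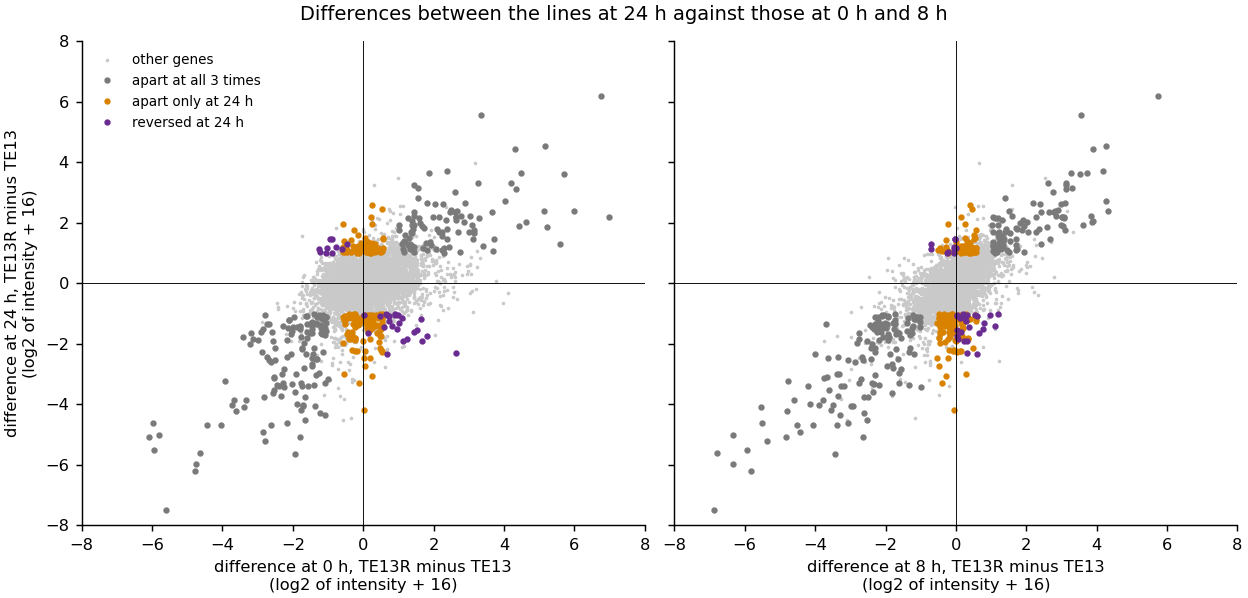
Difference between TE13R and TE13 at 24 h (vertical axis) against the difference at 0 h (left) and 8 h (right), each on the log2(intensity + 16) scale, for 8771 bright genes with 1 array per line and time point. The 165 genes apart only at 24 h form bands above and below the cloud around 0, the 34 reversed genes lie in the opposite quadrants, and the 232 genes apart at all 3 times follow the diagonal.

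The effectors of mitochondrial apoptosis were lower in TE13R than in TE13 at 24 h and were close between the lines at 8 h. For BAX, which oligomerises in the outer mitochondrial membrane, TE13R had intensities of 535, 1887 and 686 at 0, 8 and 24 h, against 325, 1963 and 3135 in TE13. By this probe, the brightest, both lines stood several-fold above their 0 h level at 8 h. At 24 h TE13R was near its 0 h level while TE13 was higher still. Between the lines this made 0.69, -0.06 and -2.17 at the 3 times, or 4.57-fold lower in TE13R at 24 h. BAX missed the rule for late genes because its 0 h difference exceeded 0.58, the log2 of 1.5. A second BAX probe gave 58.0, 556.7 and 143.1 in TE13R, against 52.2, 644.9 and 410.4 in TE13, which made 0.12, -0.21 and -1.42, so that by this probe the gene was apart only at 24 h. By the second probe TE13R was still above its 0 h level at 24 h, and TE13 was also lower than at 8 h. The remaining BAX probe was below the limit on all 6 arrays.

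BAK1, the partner of BAX in the same step, had 118, 1097 and 334 at 0, 8 and 24 h in TE13R, against 82.0, 1186 and 1051 in TE13. The lines differed by 0.45, -0.11 and -1.61, a 3.15-fold lower intensity in TE13R at 24 h, from the only probe named for it. As with the brightest BAX probe, the lines were alike at 8 h and TE13R alone was far below its 8 h level at 24 h. BIK, a BH3-only protein, had 326, 1169 and 1971 in TE13R, against 462, 1576 and 4196 in TE13, with differences of -0.49, -0.43 and -1.08. Here both lines were higher at 24 h than at 8 h, TE13 by more.

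The promoters of BAX and BAK1 are shown with those of CD276 and TMEM107. CD276 was the bright reversed gene that ranked first at 24 h by log2(intensity + 64), and TMEM107 moved the other way. The sequences are those of RefSeq on GRCh38.p14, from 250 bases before to 50 after the annotated start, 5′ to 3′ on the strand of the gene, at chr19:48954625-48954924 (+) for BAX, chr6:33580227-33580526 (-) for BAK1, chr15:73684133-73684432 (+) for CD276 and chr17:8176331-8176630 (-) for TMEM107. Capitals mark the GC box GGGCGG, the CCAAT box, the TATA box TATAAA and an E-box, CACGTG. All were searched on both strands, and neighbouring GC boxes may overlap.
BAX: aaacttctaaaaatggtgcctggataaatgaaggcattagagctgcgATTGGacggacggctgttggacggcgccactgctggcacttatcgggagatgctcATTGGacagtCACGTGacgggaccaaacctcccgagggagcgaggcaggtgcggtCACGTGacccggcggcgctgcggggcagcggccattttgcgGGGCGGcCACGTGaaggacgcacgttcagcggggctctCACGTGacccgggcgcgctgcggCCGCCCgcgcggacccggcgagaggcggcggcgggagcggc
BAK1: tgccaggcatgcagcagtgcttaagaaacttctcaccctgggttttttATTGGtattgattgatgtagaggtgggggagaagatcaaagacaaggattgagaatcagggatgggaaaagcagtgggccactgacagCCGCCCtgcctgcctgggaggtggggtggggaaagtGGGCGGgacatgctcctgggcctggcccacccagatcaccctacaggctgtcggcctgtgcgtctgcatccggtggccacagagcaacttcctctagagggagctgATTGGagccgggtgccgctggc
CD276: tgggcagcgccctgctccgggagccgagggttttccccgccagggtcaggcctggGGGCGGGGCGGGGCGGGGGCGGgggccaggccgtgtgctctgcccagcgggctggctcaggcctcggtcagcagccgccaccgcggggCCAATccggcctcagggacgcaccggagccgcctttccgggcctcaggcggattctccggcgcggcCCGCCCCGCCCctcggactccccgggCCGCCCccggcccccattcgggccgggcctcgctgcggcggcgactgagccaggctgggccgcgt
TMEM107: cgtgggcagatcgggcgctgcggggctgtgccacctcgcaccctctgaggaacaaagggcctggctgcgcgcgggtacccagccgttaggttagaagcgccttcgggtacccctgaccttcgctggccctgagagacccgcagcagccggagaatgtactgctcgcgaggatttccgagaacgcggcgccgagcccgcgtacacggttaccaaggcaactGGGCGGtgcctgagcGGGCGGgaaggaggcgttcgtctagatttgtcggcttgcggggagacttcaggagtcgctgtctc
BAX held 2 GC boxes, 2 CCAAT boxes and 4 E-boxes of this form, and BAK1 held 2 GC boxes and 2 CCAAT boxes with no such E-box. CD276 held 7 GC boxes and 1 CCAAT box, and TMEM107 held 2 GC boxes. None of the 4 windows held TATAAA. Of 27305 promoters of this length, 44.6% held GGGCGG, 35.7% CCAAT, 12% TATAAA and 7.43% CACGTG. Among the 80 bright genes apart only at 24 h and lower in TE13R that matched a promoter, 67.5% held GGGCGG and 17.5% CACGTG, beside 67.7% and 10.1% of the 9410 measured genes that matched. Among the 57 that were higher, 68.4% held GGGCGG and 10.5% CACGTG. These are matches of letters, and binding was not measured.

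The death receptor and BCL2 family list as a whole did not move with BAX and BAK1, which are among its members. Of 23 measured members 2 were higher and 4 lower in TE13R at 24 h, beside 6.25% and 7.44% of all measured genes, and their median moved little with time (0.28, 0.04 and -0.06 at 0, 8 and 24 h), beside 0.05 for all measured genes at 24 h. The 4 lower members were BAX, BAK1, BIK and TNFSF10, the death ligand TRAIL, which had 248 in TE13R and 629 in TE13 at 24 h and was already lower in TE13R at 8 h, with 5.67 in TE13R and 54.5 in TE13. The 2 higher members were dim. BCL2, the apoptosis inhibitor, had 43.5 in TE13R and 7.46 in TE13, and BMF, a BH3-only protein, had 96.0 in TE13R and 18.3 in TE13, and both TE13 values lay below the limit. BCL2L1, the inhibitor BCL-XL, had 9189.9 in TE13R and 9577 in TE13, a difference of -0.06.

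Some transcripts outside cell death were also up at 8 h and lower in TE13R at 24 h, while TE13 was higher, level or lower at 24 h than at 8 h. CD276 encodes the immune checkpoint protein B7-H3 at the cell surface. It had 498, 4000 and 946 at 0, 8 and 24 h in TE13R, against 307, 2623 and 4815 in TE13, which made 0.67, 0.61 and -2.33. TE13R was thus above TE13 at both earlier times and 5.09-fold below it at 24 h. Of its 3 other probes the next brightest had -1.51 and another had -1.31 at 24 h, while a dim probe, with 39.0 in TE13R and 30.7 in TE13, had 0.24. At 0 h and 8 h the next brightest had 0.41 and 0.36, another 0.25 and 0.08, and the dim probe 0.04 and -1.58. The rule for reversed genes was thus met by the brightest probe alone.

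KIFC1, a minus-end directed kinesin that bundles spindle microtubules, had 2245, 6638 and 1741 in TE13R, against 2665, 6707 and 6489 in TE13. Its difference of -1.89 at 24 h followed one of -0.01 at 8 h. ARPC3, a subunit of the actin-nucleating ARP2/3 complex, had 4418, 6880 and 1897 in TE13R, against 3883, 6620 and 6798 in TE13, and its difference was -1.83 at 24 h and 0.06 at 8 h. In both genes TE13 stayed at its 8 h level and TE13R at 24 h was below its 0 h level. ARPC1B, another subunit of the complex, was among the reversed genes, with 234, 1170 and 376 in TE13R, against 108, 659 and 968 in TE13, and its difference at 24 h was -1.33.

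RCC1, the exchange factor that loads the GTPase RAN on chromatin, had 308, 3135 and 445 in TE13R, against 399, 2460 and 1650 in TE13. The difference was -1.85 at 24 h with the brightest probe and -0.67 with a second. The transcripts SNHG3, SNORA73A and SNORA73B overlap this gene in RefSeq, so which transcript its probe reads cannot be told apart here. PKP3, the desmosomal plaque protein plakophilin 3, had 161, 732 and 216 in TE13R, against 218, 853 and 809 in TE13. Its second probe gave -2.42, beside -1.83 with the first. The second probe was already apart by -1.74 at 8 h, when it read 12.7 in TE13R and 80.1 in TE13.

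WDR83, a scaffold protein of MAP kinase signalling, had 43.2, 481 and 164 in TE13R, against 41.7, 570 and 979 in TE13. RAB13, a GTPase of vesicle traffic to tight junctions, had 32.7, 348 and 94.6 in TE13R, against 30.9, 319 and 506 in TE13. MYDGF, a secreted growth factor, had 266, 2138 and 1140 in TE13R, against 181, 1900 and 3812 in TE13. The 3 genes were within 1.5-fold between the lines before 24 h and 3.34-fold to 5.96-fold lower in TE13R at 24 h. RETSAT, which saturates retinol, had 154, 373 and 123 in TE13R, against 105, 431 and 621 in TE13, and was 5.04-fold lower in TE13R at 24 h.

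Among bright genes the largest late difference by value belonged to a multicopy family. NBPF9 had 149, 497 and 64.9 in TE13R, against 146, 513 and 1447 in TE13, a difference of -4.18 at 24 h. NBPF10 had 540.3, 373 and 143 in TE13R, against 632, 335 and 736 in TE13, a difference of -2.24. Members of this family are near-identical, so a probe may read several of them, and second probes gave -0.52 for NBPF9 and -0.38 for NBPF10. The values of these 2 genes are uncertain for that reason.

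**Figure D2:**
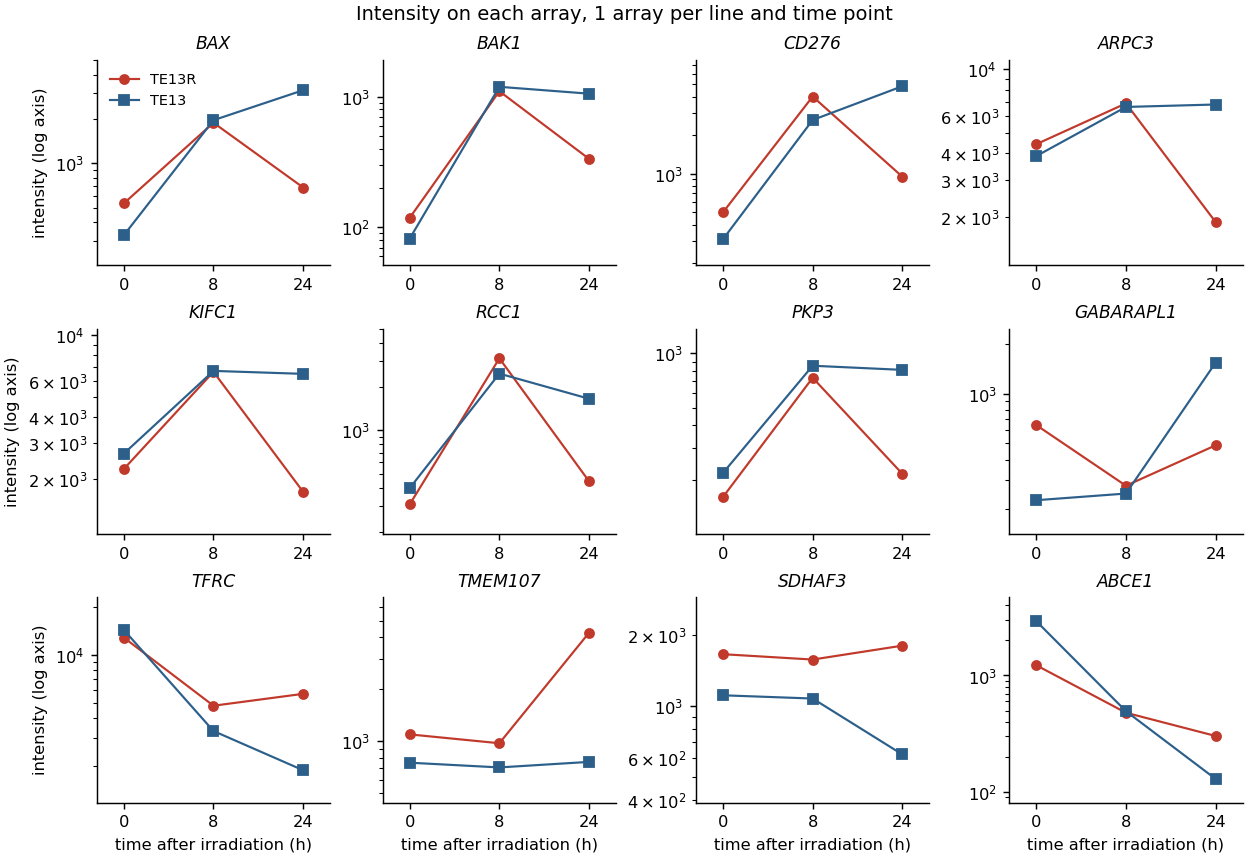
Intensity (log axis, a separate range for each gene) of 12 genes at 0, 8 and 24 h after irradiation in TE13R (circles) and TE13 (squares), 1 array for each point, with no error bars because there are no replicates. In BAX, BAK1, ARPC3, KIFC1, RCC1 and PKP3 the lines lie close at 8 h and part at 24 h, and in CD276 they cross; in TMEM107 TE13R alone is higher at 24 h, and in TFRC, SDHAF3 and ABCE1 TE13 is lower.

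Bright late genes that were lower in TE13R had often gone up early in both lines. Of the 100, 53 were at least 2-fold higher at 8 h than at 0 h in both TE13R and TE13 (53%), beside 20.1% of all 8771 bright genes, and 5 were at least 2-fold lower in both (5%), beside 20.8%. Between 8 h and 24 h, 63 of the 100 were at least 1.5-fold lower in TE13R and 7 in TE13, while 16 were at least 1.5-fold higher in TE13R and 45 in TE13. The rule fixes that the lines part after 8 h with TE13R the lower, so these counts describe the group and test nothing.

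The 65 bright late genes that were higher in TE13R showed the mirror image, with the same limit. Of these, 26 were at least 2-fold lower at 8 h than at 0 h in both lines (40%), and 8 were higher (12.3%). From 8 h to 24 h, 41 were at least 1.5-fold lower in TE13 and 9 in TE13R, while 20 were at least 1.5-fold higher in TE13R and 3 in TE13. Genes apart at all 3 times had no such lean, with 17.0% up and 19.3% down at 8 h among the 135 lower in TE13R, and 14.4% up and 19.6% down among the 97 higher.

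**Figure D3:**
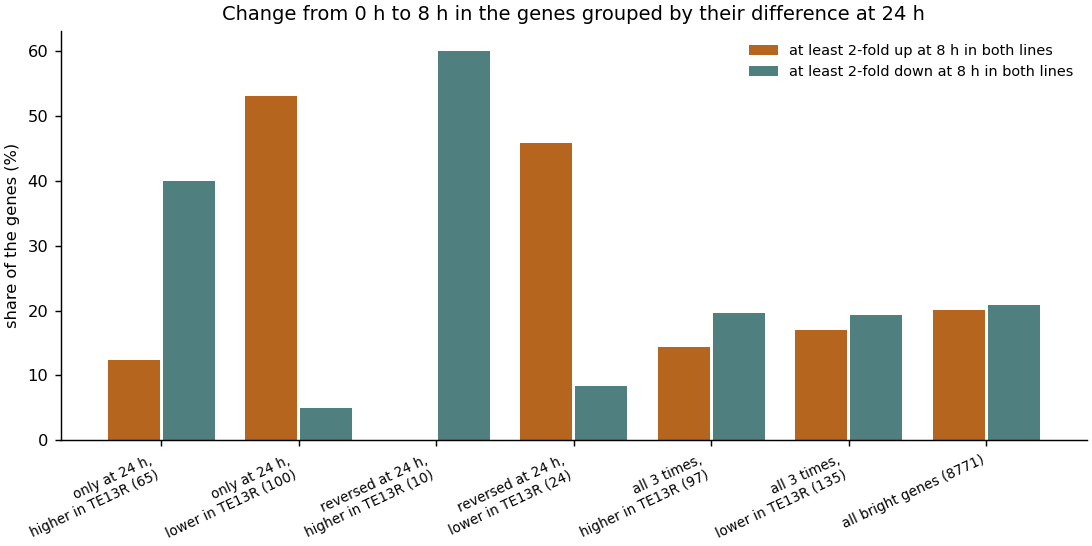
Share (%) of bright genes that were at least 2-fold up (brown) or down (green) at 8 h against 0 h in both lines, by their class at 24 h, with the number of genes in brackets. Genes lower in TE13R only at 24 h were up at 8 h in 53%, genes higher only at 24 h were down at 8 h in 40%, and all bright genes were up in 20.1% and down in 20.8%.

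Over all bright genes that had changed at 8 h in both lines, the lines differed less. For 1763 genes at least 2-fold higher at 8 h, the median share of the change left at 24 h was 77.8% in TE13R and 82.6% in TE13, and 49.3% of them were nearer to their 0 h level in TE13R, so neither line was ahead by that count. For 1823 genes at least 2-fold lower, it was 75% in TE13R and 87.4% in TE13, and 65.4% of them were nearer to their 0 h level in TE13R. Both shares use the 0 h arrays, which stood apart from the rest.

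Among the late genes that were higher in TE13R, TMEM107 ranked first when dim probes were held back by an offset of 64. It encodes a membrane protein of the ciliary transition zone. It had 1098, 976 and 4255 at 0, 8 and 24 h in TE13R, against 753, 707 and 762 in TE13, a difference of 0.53, 0.46 and 2.46. By this probe TE13 kept 1 level throughout, and TE13R was 5.59-fold above it at 24 h. A second probe had 704, 137 and 246.8 in TE13R, against 504, 96.4 and 107.0 in TE13, with differences of 0.47, 0.45 and 1.10. By the second probe both lines were lower at 8 h and 24 h than at 0 h. SNORD118, the gene of the U8 small nucleolar RNA, overlaps TMEM107 in RefSeq, and whether the first probe reads it was not tested.

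TFRC, the transferrin receptor that takes up iron, had 12845, 4783 and 5682 in TE13R, against 14355, 3316 and 1878 in TE13. The lines differed by -0.16, 0.53 and 1.59, and TE13 alone was lower at 24 h than at 8 h. NT5DC2, a member of the 5'-nucleotidase domain family, had 2478, 6301 and 4688 in TE13R, against 2373, 5295 and 1668 in TE13, a difference of 1.48 at 24 h. NETO2, an auxiliary subunit of kainate receptors, had 2622, 1491 and 1034.5 in TE13R, against 3846, 1202 and 385 in TE13, a difference of 1.39. In these 3 genes TE13R was within 1.5-fold of its 8 h level at 24 h, and TE13 was lower than at 8 h.

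SDHAF3, an assembly factor of succinate dehydrogenase, had 1653, 1568 and 1796 in TE13R, against 1108, 1073 and 623 in TE13. Its difference was 0.57, 0.54 and 1.5, just under the bound of 0.58 at the earlier times, and a second probe gave 0.72, 0.73 and 1.09, so by that probe the lines were also apart before 24 h. SLC25A13, the mitochondrial aspartate-glutamate carrier, had 858, 496 and 527 in TE13R, against 795, 381 and 198 in TE13. RPL14, a protein of the large ribosomal subunit, was 1.36 higher by its first probe and 2.04 by its second at 24 h. The first probe read 119 in TE13R and 36.3 in TE13, and 48 of 50 measured ribosomal protein genes were less than 2-fold apart.

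Reversed genes were fewer. Of the 34 bright ones 30 were at least 1.5-fold apart the other way at 0 h and 10 at 8 h. GABARAPL1, a ubiquitin-like protein of autophagosomes, had 646, 278 and 488 in TE13R, against 227, 250 and 1537 in TE13, with differences of 1.44, 0.15 and -1.62. PRODH, the mitochondrial proline dehydrogenase, had 347, 456 and 619 in TE13R, against 148, 387 and 2344 in TE13, with 1.14, 0.23 and -1.89. PADI3, a peptidylarginine deiminase of keratinising epithelia, had 134, 96.0 and 246 in TE13R, against 27.0, 94.6 and 870 in TE13, with 1.80, 0.02 and -1.76. In all 3 the lines were level at 8 h, TE13R was the higher at 0 h, and TE13 alone was more than 5-fold higher at 24 h than at 8 h.

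FKBP2, a prolyl isomerase of the endoplasmic reticulum, had 139, 961 and 383 in TE13R, against 49.8, 916 and 1421 in TE13, with 1.23, 0.07 and -1.85. Its second probe gave -3.90, with TE13R below 0 at 24 h and 223 in TE13, another gave -2.65, and a dim one gave 1.32 with 35.4 in TE13R and 4.6 in TE13. SLC3A2, the heavy chain of several amino acid transporters, had 3432, 3058 and 2364 in TE13R, against 2050.3, 3019 and 5018 in TE13, with 0.74, 0.02 and -1.08. PIK3IP1, an inhibitor of phosphoinositide 3-kinase, had 211, 4.78 and 22.3 in TE13R, against 20.1, 0.58 and 172 in TE13, so that both lines lay below the limit at 8 h.

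In the other direction, ABCE1, the ATPase that recycles ribosomes, had 1226, 479 and 302 in TE13R, against 2936, 493 and 129 in TE13. Its difference was -1.25, -0.04 and 1.13, and a second probe gave -1.32, -0.44 and 1.18. By both probes TE13R was the lower line at 0 h and the higher at 24 h. OGT, the enzyme that adds O-linked N-acetylglucosamine to proteins, had 925, 68.7 and 108 in TE13R, against 1783, 70.6 and 28.8 in TE13, with -0.93, -0.03 and 1.47. PPM1D, the p53-induced phosphatase WIP1, had 129, 10.2 and 90.1 in TE13R, against 139, 25.3 and 24.0 in TE13, with -0.10, -0.66 and 1.41, and its 8 h value in TE13R was below the limit.

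Second probes were compared at 24 h alone. The shares below therefore do not bear on whether the lines were level or reversed at 0 h and 8 h. Some second probes were apart earlier, as in LCK with -1.31 and CTDSPL2 with 2.03 at 8 h. Others were not, as in RASSF1 with 0.05 at 0 h and 0.25 at 8 h. Of the 165 bright genes apart only at 24 h, 32 had a second probe above the limit, of which 25 had the same sign (78.1%) and 16 were at least 1.5-fold apart in the same direction (50%). Over all bright genes with a second probe, 70.1% had the same sign and 25.6% were at least 1.5-fold apart in it. Of 9 reversed genes with a second probe 7 were at least 1.5-fold apart in the same direction, and of 51 genes apart at all 3 times 42 were (82.4%). Among the genes not borne out, TAP2, a subunit of the peptide transporter of the MHC class I pathway, had -1.72 with its first probe and 0.38 with its second, which was of similar brightness.

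**Figure D4:**
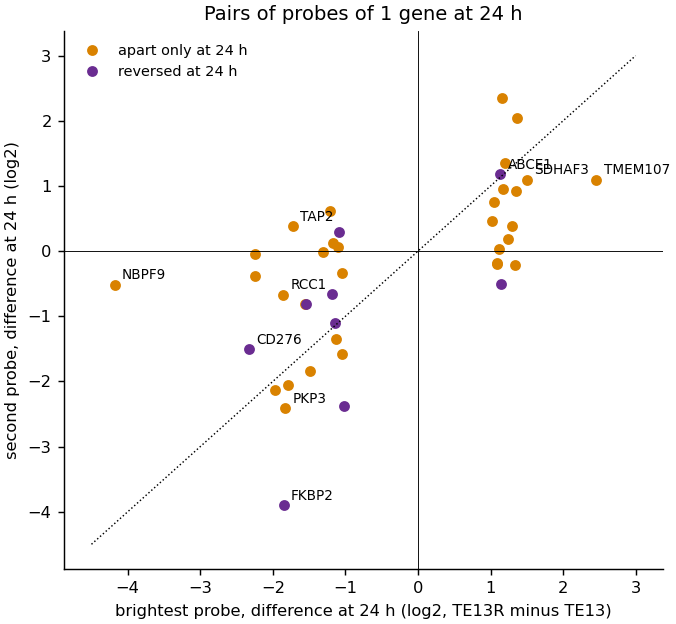
Difference between TE13R and TE13 at 24 h by the second probe of a gene (vertical axis) against that by its brightest probe (horizontal axis), both on the log2(intensity + 16) scale, for 41 bright genes apart only at 24 h or reversed. The dotted line marks equal values; 32 of the 41 points lie on the same side of 0 for both probes.

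Immediate early genes, which encode transcription factors and phosphatases switched on within minutes of a stimulus, had a list median below 0 at 24 h, and above 0 at 0 h and 8 h. Of 27 measured members 23 were below 0, as were 5309 of all 11550 measured genes, 6 were at least 2-fold lower, beside 7.44% of all, and 1 was higher, beside 6.25%, and the list median was 0.20, 0.24 and -0.42 at 0, 8 and 24 h, beside 0.01, 0.01 and 0.05 for all measured genes. FOS had 1291, 643 and 3491 in TE13R, against 406, 827 and 7240 in TE13, with a difference of 1.63 at 0 h and -1.05 at 24 h. EGR1 had differences of 1.03, 1.28 and -0.65, with 3893 in TE13R and 6127 in TE13 at 24 h. Both were higher in each line at 24 h than at 8 h, and by more in TE13. Some lower members were already lower earlier. DUSP4, a MAP kinase phosphatase, had differences of -1.41, -0.83 and -2.15, and CCN1, a matricellular protein, had -2.05, -0.74 and -1.90. KLF6, a zinc finger factor, was apart only at 24 h, with 304 in TE13R and 653 in TE13. The member that was higher in TE13R, NR4A2, had 72.6 in TE13R and 22.3 in TE13.

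Interferon-stimulated genes were lower in TE13R at 24 h as they had been earlier. Of 38 measured members 12 were at least 2-fold lower and 0 higher, beside 7.44% and 6.25% of all measured genes, and 33 were below 0, with list medians of -0.50, -1.11 and -0.74 at 0, 8 and 24 h. MX1, an antiviral GTPase, had 17271, 2853 and 5796 in TE13R, against 38357, 13186 and 16688 in TE13. BST2, which tethers budding virions, had 2921 in TE13R and 6496 in TE13 at 24 h, and differences of 0.52, -0.48 and -1.15. IFIT1, which binds viral RNA, crossed the other way, with differences of -1.06, -1.61 and 0.59 and 24 h intensities of 1631 in TE13R and 1079.7 in TE13.

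Of 21 measured heat shock genes 3 were at least 2-fold apart at 24 h, all higher in TE13R, a share of 14.3% that is close to the 13.7% of all measured genes. The list medians were -0.17, 0.23 and 0.47 at 0, 8 and 24 h, beside 0.05 for all measured genes at 24 h. HSPE1, the mitochondrial co-chaperonin, had 11075 in TE13R and 6271 in TE13 at 24 h, and DNAJA1, a partner of HSP70, had 4665 in TE13R and 2692 in TE13, both less than 2-fold apart. The 3 that passed the size were HSPA4L, HSPB8 and CRYAB, of which HSPB8 and CRYAB were higher in TE13R at all 3 times, and HSPA4L was dim, with 89.9 in TE13R and 3.09 in TE13.

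For other lists the genes at least 2-fold apart at 24 h are given, of which some were apart earlier too. Over all measured genes 6.25% were higher, 7.44% lower and 13.7% apart. Of 32 measured genes of G2 and mitosis 1 was at least 2-fold lower (3.1%), the phosphatase CDC25B. It had 9470.4 in TE13R and 19071 in TE13, and its difference was -1.11 at 0 h. In this list 24 genes were below 0, with list medians of -0.91, -0.03 and -0.31 at 0, 8 and 24 h. Of 23 p53 targets 2 were higher (PPM1D and RRM2B) and 3 lower (BAX, SPATA18 and PLK3), a share of 21.7% apart. SPATA18 had a difference of -1.49 at 0 h. CDKN1A, the cell cycle inhibitor p21, had 11530.4 in TE13R and 11711 in TE13, a difference of -0.02. Of 23 genes of double-strand break repair 1 was higher (4.35%), FANCI, with 106 in TE13R and 19.5 in TE13. FANCI had a difference of 2.32 at 8 h. Of 26 genes of cholesterol and fatty acid synthesis 3 were higher and 0 lower, a share of 11.5% apart. Among them was ELOVL6, a fatty acid elongase, with 489 in TE13R and 217 in TE13, whose second probe gave 0.03. Of 27 NRF2 targets 4 were higher and 1 lower, and the 2 subunits of glutamate-cysteine ligase were among the higher ones, GCLM with 3751 in TE13R and 1519 in TE13 and GCLC with 539 in TE13R and 227 in TE13. AKR1C3, an aldo-keto reductase, had 37103, 26809 and 31318 at 0, 8 and 24 h in TE13R, against 38854, 25136 and 30845 in TE13. Its differences were -0.07, 0.09 and 0.02. The paper reports higher AKR1C3 in TE13R than in TE13, from its arrays, by RT-PCR and by Western blotting, and the intensities here do not show it. They come from 1 probe that read 25136 or more on every array. Whether differences are compressed at that brightness was not tested. ACTB and GAPDH differed by -0.03 and 0.04 at 24 h.

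**Figure D5:**
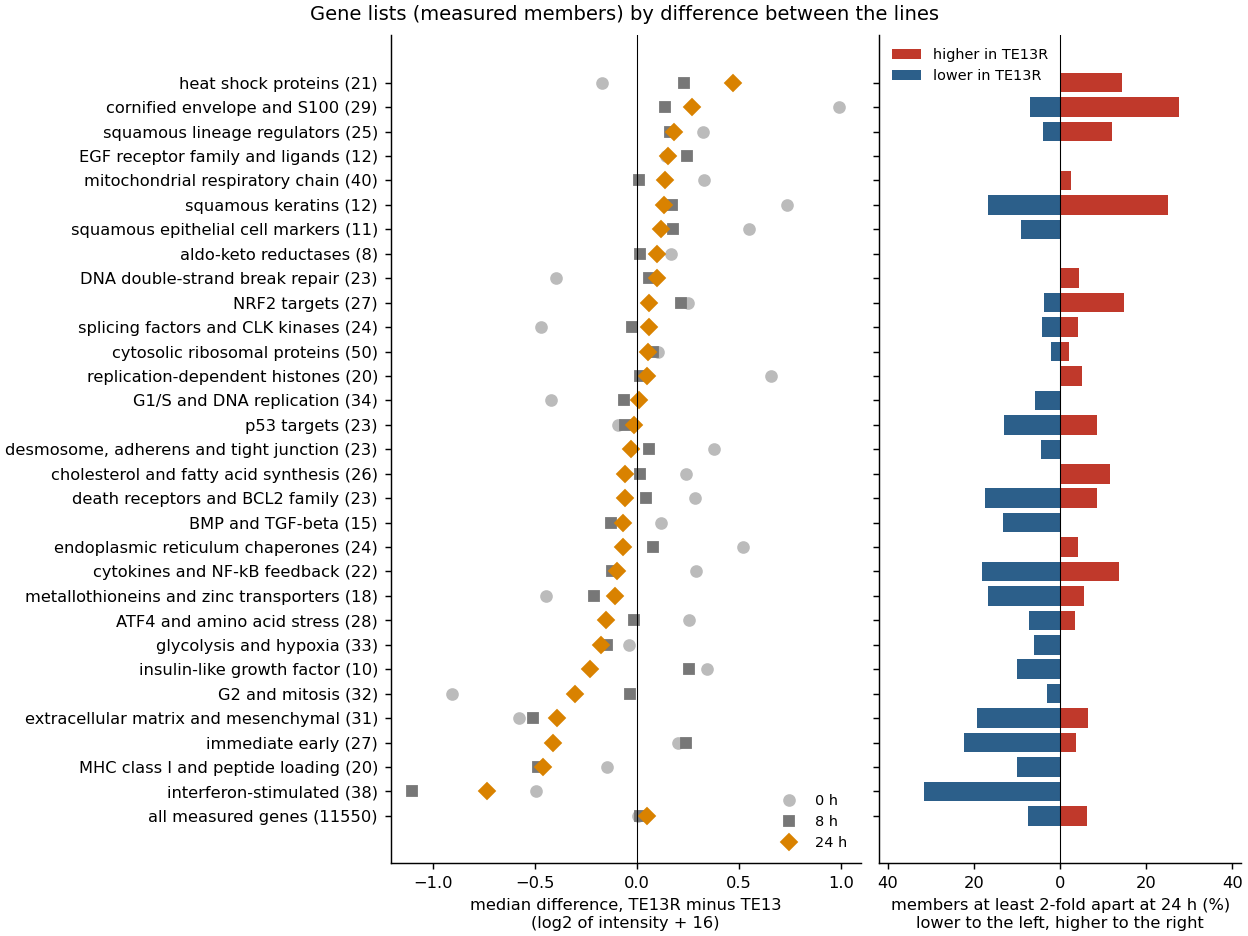
Left, median difference between TE13R and TE13 of each gene list with at least 8 measured members at 0 h (circles), 8 h (squares) and 24 h (diamonds) on the log2(intensity + 16) scale, with the number of measured members in brackets. Right, share (%) of members at least 2-fold higher (bars to the right) or lower (bars to the left) in TE13R at 24 h; all measured genes are at the bottom, and among the lists drawn the interferon-stimulated one has the longest bar to the left, 12 of 38.

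The median size of the 24 h difference was 1.21 for the 165 bright genes apart only then and 2.05 for the 232 apart at all 3 times. The widest gaps at 24 h belonged to genes that were apart at all 3 times. GPC5, a glypican of the cell surface, had 3220 in TE13R and 28.5 in TE13 at 24 h, and SIRPA, a receptor for CD47, had 736 in TE13R and lay below 0 in TE13, at least 36.5-fold apart against the limit. In the other direction MYADM, a membrane protein first described in myeloid cells, lay below 0 in TE13R and had 2874 in TE13, at least 142.5-fold apart. Its other probes were below the limit in both lines at 24 h, and the mean of its probes gave -2.81. CRIP1, a LIM domain protein, had 85.5 in TE13R and 7483 in TE13. CES1, a carboxylesterase that also differed at 8 h, had 143, 245 and 19.1 in TE13R, against 187, 567 and 759 in TE13. Its difference was -0.36, -1.16 and -4.47, at least 37.6-fold lower in TE13R at 24 h, and its 2 other probes were below the limit on all arrays.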

How the data were processed

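The authors labelled the RNA with biotin, read the arrays in BeadStudio and deposited linear intensities, already corrected for background and brought to 1 scale by a method that the sources used here do not give. The DiffScore named in the methods needs bead errors and was not computed. Of 48803 probes, 27578 have 1 gene symbol in the platform annotation, 13 several and 21212 none, and 27541 were found by Entrez identifier in RefSeq (GRCh38.p14), which changed 0 symbols.

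The log2 of the intensity plus 16 was used, with negative intensities raised to 0 first, and the probe with the highest mean over the 6 arrays stood for a gene. Values were computed in Python 3.11.15 with pandas 2.3.3, numpy 2.4.6 and statsmodels 0.14.6. The number of arrays limits the precision, and depth does not apply.

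Genes were named by rule: the 10 largest differences in each direction at 24 h, 15 of those apart only then, 8 reversed, up to 4 members of each list at least 2-fold apart, and AKR1C3, ACTB and GAPDH, ranked with an offset of 64; not all are described, and provisional and Y-linked names were passed over. EGR1, NR4A2, BST2, IFIT1, HSPE1, DNAJA1, BCL2, BMF, BCL2L1, CDKN1A, PLK3, PAPSS2, PHACTR2, LIG1, CLRN1, S100A8 and THBS1 were named outside it after their values were seen. Members and lists were chosen with earlier results of these data known. As alternatives, offsets of 1 and 64 were tried, as were quantile normalization, loess on brightness, other filters, the mean of a gene's probes, 3-fold and other bounds and, chosen after seeing the data, both 24 h arrays above the limit and a 4-fold change at 8 h. KY170 and KY170R were not analysed here.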

Additional observations from a re-analysis of the deposited data

Results flagged for a closer look

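Among 132 named genes, 24 were at least 2-fold apart at 24 h and at least 1.5-fold apart in the opposite direction at 0 h, at 8 h or at both. The change of sign was not tested, since each line and time point has 1 array. At 24 h 14 of these genes were lower in TE13R and 10 higher. Differences are TE13R minus TE13 at 24 h on the log2(intensity + 16) scale.

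Opposite to 0 h alone and lower in TE13R at 24 h were PRODH (-1.89), FKBP2 (-1.85), PADI3 (-1.76), GABARAPL1 (-1.62), PIK3IP1 (-2.29), SLC39A2 (-1.91), BAX (-2.17), FOS (-1.05), NUPR1 (-1.82), SLC3A2 (-1.08), CLIC3 (-1.92) and ZNF750 (-1.21). NUPR1, CLIC3 and ZNF750 were already lower in TE13R at 8 h, by -1.21, -3.76 and -0.90. Opposite to both earlier times and lower at 24 h were CD276 (-2.33) and ARPC1B (-1.33).

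Higher in TE13R at 24 h and opposite to 0 h alone were PIK3R4 (1.47), ABCE1 (1.13), OGT (1.47), MTREX (1.02) and ATAD5 (1.36). Opposite to 8 h alone were YJEFN3 (1.81), SPRN (2.21), PPM1D (1.41) and TEK (1.12), of which SPRN and TEK were below the limit on 5 of 6 arrays. SPATS2 (1.15) was opposite to both, and its second probe had -0.51 at 24 h. The 0 h arrays, against which 20 of the 24 changes of sign run in whole or in part, stood apart from the others.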

How the results depend on the processing

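No paired analysis was possible because each line and time point has 1 array and the labels carry no replicate number; for the same reason no array could be left out. Genes at least 2-fold apart at 24 h numbered 607 with an offset of 64, 809 among bright genes, 504 at 3-fold and 805 with both 24 h arrays above the limit, against 1581. Genes apart only at 24 h numbered 152 with an offset of 64 (46 higher in TE13R, 106 lower), 165 among bright genes, 100 at 3-fold, 195 with a narrower bound at the earlier times and 201 with both arrays above the limit, against 495. Reversed genes numbered 224 with an offset of 1, 14 with an offset of 64, 34 among bright genes, 21 at 3-fold and 44 with both arrays above the limit, against 91. Genes apart at all 3 times numbered 437 with an offset of 1, 140 with an offset of 64, 123 at 3-fold and 185 with both arrays above the limit, against 280. Loess, no filter and the mean of probes moved none of these 4 counts by over 1.5 times. Quantile normalization did not either, but it is no check here. The 6 arrays already had near-equal distributions, with medians from 7.95 to 7.96, so it could change little. The interferon-stimulated list held 2 genes apart at 3-fold, against 12, and the death receptor and BCL2 list 3, against 6, while with both arrays above the limit the cornified envelope list held 5, against 10, and the extracellular matrix list 4, against 8. TE13R was the line that moved more from 8 h to 24 h in 54.3% of genes apart only at 24 h, and in 48.7% with an offset of 64. Second probes had the same sign in 76.6%, in 88.5% with an offset of 64 and in 90.9% with the narrower bound. For genes changed at least 4-fold at 8 h, the share left at 24 h was 65.2% in TE13R and 73.8% in TE13 after an increase, and 64.9% in TE13R and 78.6% in TE13 after a decrease. Of 132 named genes, 0 of those at least 2-fold apart changed sign, and 30 came under 2-fold with an offset of 64, 18 with the mean of probes (RCC1 at -0.69 and TAP2 at -0.67 among them) and 4 with loess. The cause of these changes was not tested beyond the fewer genes that stricter settings admit.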

Other observations

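Some differentiation genes of the squamous lineage were farther apart in TE13R and TE13 at 0 h than at 24 h. Of 12 measured keratins of the list 3 were at least 2-fold higher and 2 lower in TE13R at 24 h, and of 29 cornified envelope and S100 genes 8 were higher and 2 lower, beside 6.25% and 7.44% of all measured genes. KRT13, a keratin of suprabasal mucosa, had 33269, 9458 and 11299 at 0, 8 and 24 h in TE13R, against 246, 1100 and 2465 in TE13, and its difference was 6.99, 3.09 and 2.19. KRT15, a basal keratin, had differences of 5.59, 2.42 and 1.3, and S100A8, a calcium-binding alarmin, had 5.22, 2.60 and 1.86. In KRT13 and KRT15 the intensity was lower in TE13R and higher in TE13 at 24 h than at 0 h. KRT14, another basal keratin, widened the other way, with differences of -1.67, -1.78 and -2.81. Small proline-rich proteins, cross-linked into the cornified envelope, were mixed. SPRR2A had 1.87, 3.26 and 3.63, and SPRR2D had 0.99, 2.54 and 3.48, both below the limit in TE13 at 24 h. A second, dim SPRR2D probe gave -0.01, -1.01 and 0.93. SPRR1B had 2.64, 3.01 and 2.18, and was thus farther apart at 0 h than at 24 h.

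THBS1, the matrix protein thrombospondin 1, had differences of -1.75, 0.10 and 1.56, with 291 in TE13R and 88.1 in TE13 at 24 h. Of 31 measured members of the extracellular matrix list 2 were higher and 6 lower in TE13R at 24 h, beside 6.25% and 7.44% of all measured genes, and the membrane protease MMP14 was apart only then, with 26.1 in TE13R and 218 in TE13.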
